A study of Homo sapiens with 6 samples.

Results

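The D-type cyclins, their kinases CDK4 and CDK6, the inhibitors of these kinases and the retinoblastoma protein form the switch that lets a cell leave G1 and start DNA synthesis, and the mRNA levels of these genes were compared between parental and mutated BCWM1 cells. The members were 10 genes: CCND1, CCND2, CCND3, CDK4, CDK6, CDKN1B, CDKN2A, CDKN2C, CDKN2D and RB1. Every probe set whose annotation gives a member as its only symbol was taken, which gave 24 probe sets of 9 genes, of 19775 genes named on the array in this way. CDKN2C had no probe set under this rule and was not analysed here. Of the 24 probe sets, 22 were bright enough to be tested, and all 9 genes had at least 1 among them.

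BCWM1 is an established line derived from Waldenström macroglobulinemia, in which lymphoid and plasma cells secrete IgM. The 6 arrays measured total RNA of 3 samples titled parental and 3 titled mutated. The series title names CXCR4, which encodes the CXCL12 receptor, as the mutated gene and writes the change as C1013G. How the mutated cells were made, whether they are 1 clone, and whether the parental cells carry a control vector was not stated in the labels. The labels name no separate cultures either, so the p-values reflect the spread among these particular samples and that spread may be technical.

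Cyclins D1, D2 and D3 bind CDK4 or CDK6 and bring them to the retinoblastoma protein RB1, whose phosphorylation frees the E2F factors that transcribe genes of S phase. The INK4 proteins, among them p16 from CDKN2A and p19 from CDKN2D, bind CDK4 and CDK6 and keep the cyclin away, while p27 from CDKN1B binds whole cyclin and kinase complexes. Normal B cells mainly use cyclins D2 and D3, and cyclin D1 is best known in B lymphoid tumours from mantle cell lymphoma and myeloma, where translocations switch it on.

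Array medians lay between 28.46 and 31.83, and the mutated arrays were slightly brighter. Of 32768 probe sets tested, 30.9% were higher and 16.6% lower in mutated cells (limma; p-values adjusted over all tested probe sets by Benjamini-Hochberg, threshold 0.05). Of 13644 genes, each represented by its brightest tested probe set, 30.1% were higher and 18.9% lower. Changes are given as the log2 of (intensity + 16), mutated minus parental. The median change was 0.06 over all tested probe sets. Higher calls made up 65.1% of all calls in the values as deposited, 50.1% with quantile normalization and 50.7% with median centring, which shifted the median change by −0.08 each. All 7 B cell markers with a probe set were tested: CD79A, CD79B (0.63) and CD37 rose, BLK (from 1335 ± 61.4 to 439 ± 5.05; SD, n = 3) and CD22 (−0.41) fell, and MS4A1 and PAX5 did not pass. Of 8 plasma cell markers 5 fell, TNFRSF17 (−1.89), PRDM1 (−1.59), SDC1 (−0.87), CD38 (−0.65) and JCHAIN (−0.48), MZB1 rose (0.48), and XBP1 and IRF4 did not pass. Their summed intensity ranged from 18634 to 19301 in parental and from 14123 to 14887 in mutated cells. The T cell genes CD3D, CD3E and CD3G and the monocyte genes CD14, LYZ and CD163 were too dim to be tested. Of 8 T cell markers 2 were tested and 1 rose (TRAT1, from 5.40 ± 1.798 to 59.1 ± 4.70; SD, n = 3). The parental mean of TRAT1 lay below the filter's cut at an intensity of 18.0. It was tested only through its mutated values, so its count as a rise is partly set by the filter. Of 8 monocyte markers 5 were tested, 1 rose (S100A9, from 674 ± 26.7 to 2734 ± 64.4; SD, n = 3) and 1 fell (VCAN). The summed T cell markers ranged from 92.8 to 106 in parental and from 141 to 178 in mutated cells, and the summed monocyte markers from 788 to 837 and from 2799 to 2918, and most of each step came from TRAT1 and S100A9. KLRF1 fell among 4 tested NK cell markers and COL1A1 among 2 tested stromal markers. The part of other cell types in the results below was not tested. In bulk RNA fewer cells with a transcript and less of it per cell cannot be told apart.

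The sequences just upstream of CDK4, CDKN1B, CDKN2D and CDKN2A are shown first. Each is the 250 bases before a transcript start in RefSeq (GRCh38.p14), on the strand of the gene, and 8 of the 10 members matched an entry. The windows of CCND3, CDK6, CDKN2C and RB1 are not shown, and CCND1 and CCND2 had no entry. Capitals mark matches, on either strand, to CACGTG (the E box bound by MYC and its partners), GGGCGG (the GC box) and CCAAT. TTTCGCGC and TTTGGCGC (forms of the E2F motif) and TGTTTAC (the forkhead motif) were searched too and had no match in these 5 windows. No matches overlap in them.
CDK4 (chr12:57752311-57752560, minus strand): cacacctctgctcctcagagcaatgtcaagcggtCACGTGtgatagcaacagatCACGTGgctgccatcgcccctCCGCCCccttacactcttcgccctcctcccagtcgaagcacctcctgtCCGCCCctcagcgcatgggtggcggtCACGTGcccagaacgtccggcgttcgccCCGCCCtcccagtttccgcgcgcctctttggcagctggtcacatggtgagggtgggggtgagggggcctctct
CDKN1B (chr12:12717118-12717367, plus strand): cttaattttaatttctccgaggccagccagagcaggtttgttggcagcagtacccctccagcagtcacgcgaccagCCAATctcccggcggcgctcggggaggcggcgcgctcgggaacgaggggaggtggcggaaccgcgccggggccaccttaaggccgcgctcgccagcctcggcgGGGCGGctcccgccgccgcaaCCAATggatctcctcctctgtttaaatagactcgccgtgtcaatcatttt
CDKN2D (chr19:10568980-10569229, minus strand): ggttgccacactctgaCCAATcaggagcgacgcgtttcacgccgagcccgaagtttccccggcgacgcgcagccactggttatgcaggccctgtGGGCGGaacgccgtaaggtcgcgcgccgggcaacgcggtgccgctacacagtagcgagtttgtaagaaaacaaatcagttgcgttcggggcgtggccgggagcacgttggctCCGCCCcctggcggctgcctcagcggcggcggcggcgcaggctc
CDKN2A, downstream start (chr9:21974858-21975107, minus strand): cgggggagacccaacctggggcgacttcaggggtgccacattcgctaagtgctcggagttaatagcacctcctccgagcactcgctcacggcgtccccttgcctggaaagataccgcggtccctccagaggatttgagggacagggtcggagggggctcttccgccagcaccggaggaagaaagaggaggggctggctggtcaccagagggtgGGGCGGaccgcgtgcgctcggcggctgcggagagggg
CDKN2A, upstream start (chr9:21995325-21995574, minus strand): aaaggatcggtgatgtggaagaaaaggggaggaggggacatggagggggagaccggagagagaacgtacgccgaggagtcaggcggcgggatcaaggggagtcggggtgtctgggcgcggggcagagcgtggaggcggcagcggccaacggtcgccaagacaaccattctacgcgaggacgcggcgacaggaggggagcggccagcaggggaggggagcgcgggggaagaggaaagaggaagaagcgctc

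The CDK4 window held 3 E boxes and 3 GC boxes. Among 34788 distinct windows of 250 bases from the same table, 6.31% held at least 1 E box and 0.0776% held 3 or more. All motifs were searched in 14 member windows, and the CDK4 count of E boxes was the highest among them. The CDKN1B window held 1 GC box and 2 CCAAT boxes, and the CDKN2D window 2 GC boxes and 1 CCAAT box. A GC box was present in 42.6% of all windows, 2 or more in 24.3% and 3 or more in 13.9%. A CCAAT box was present in 32.0% and 2 or more in 9.53%. CDKN2A is known for a pair of first exons, the downstream one for p16 and the upstream one for the unrelated protein ARF. The window of its downstream start held 1 GC box and that of its upstream start none of the motifs. The E2F forms occurred in 0.428% and 0.549% of windows and the forkhead motif in 2.98%. These matches describe letters only and are not binding sites measured here. Whether they bear on any change in mRNA was not tested.

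Among the D cyclins, CCND1 rose, CCND2 fell on its 3 brightest probe sets but rose on its dimmest, and CCND3 did not pass. CCND1, which encodes cyclin D1, had intensities of 94.99, 81.6 and 69.5 in parental and of 227, 214 and 206 in mutated cells (probe set 208711_s_at). Each mutated value lay far above every parental value. The group means were 82.0 ± 12.8 and 216 ± 10.6 (SD, n = 3). The log2 change was 1.25 (SE 0.0997; limma, adjusted p = 1.3e-04). The other CCND1 probe set, 208712_at, rose from 70.0 ± 11.2 to 177 ± 17.4 (SD, n = 3), or by 1.17 on the log2 scale (SE 0.110; limma, adjusted p = 2.7e-04), and its groups did not overlap either. A rise as large as that of CCND1 was found in 2.75% of all tested genes. Over the alternatives, its brighter probe set changed by 0.94 to 1.39 and its other one by 0.85 to 1.34, and both passed each time.

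CCND2, which encodes cyclin D2, was read by 4 probe sets that did not move together. The brightest, 200953_s_at, gave 9071, 9266 and 9038 in parental and 8045, 7745 and 7563 in mutated cells. All mutated values were lower, by a small step: the means of 9125 ± 124 and 7784 ± 243 (SD, n = 3) differed by a log2 change of −0.23 (SE 0.0481; limma, adjusted p = 0.0082). Probe set 200951_s_at was lower as well, at 2704 ± 156 and then 2171 ± 105 (SD, n = 3), with a change of −0.31 (SE 0.0647; limma, adjusted p = 0.0076). Probe set 200952_s_at gave 347, 646 and 697 in parental and 271, 179 and 187 in mutated cells. Its parental replicate 1 lay nearer to the mutated values than to the other parental ones, and the log2 change of −1.31 had a wide SE of 0.281 (limma, adjusted p = 0.0092).

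Probe set 231259_s_at, also assigned to CCND2, went the other way. It gave 32.7, 36.0 and 42.1 in parental and 132, 154 and 127 in mutated cells, so that the groups were far apart. Its log2 change was 1.53 (SE 0.0935; limma, adjusted p = 4.1e-05). CCND2 was the 1 member of 6 with several tested probe sets whose calls differed in direction. Averaged over the 4 probe sets, with the dimmest counted as much as each other one, the CCND2 change was −0.08 (limma, adjusted p = 0.51). The call of a fall thus holds on each of the 3 brightest probe sets but not on their average with 231259_s_at. Which transcripts each probe set reads was not analysed here.

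CCND3, which encodes cyclin D3, gave 545, 561 and 601 in parental and 636, 686 and 620 in mutated cells on probe set 201700_at. The mutated values lay just above the parental ones, with a gap smaller than the range of either group. The log2 change of 0.18 (SE 0.0629; limma, adjusted p = 0.054) missed the threshold, and its unadjusted 95% interval ran from 0.03 to 0.33. Under 6 alternatives it passed: with the dimmest 60% left out, trend and robust options, array weights, a pseudocount of 64, the mean of probe sets, and without parental replicate 3 (adjusted p from 0.012 to 0.049). For CCND3 the mean of probe sets is this same probe set with the same change, so it adds no other reading. The other scalings made the CCND3 change smaller, at 0.14 with quantile normalization (limma, adjusted p = 0.12) and 0.10 with median centring (limma, adjusted p = 0.27). A second CCND3 probe set, 1562028_at, ranged from 1.61 to 19.01 over the 6 arrays and was too dim to be tested.

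**Figure D1:**
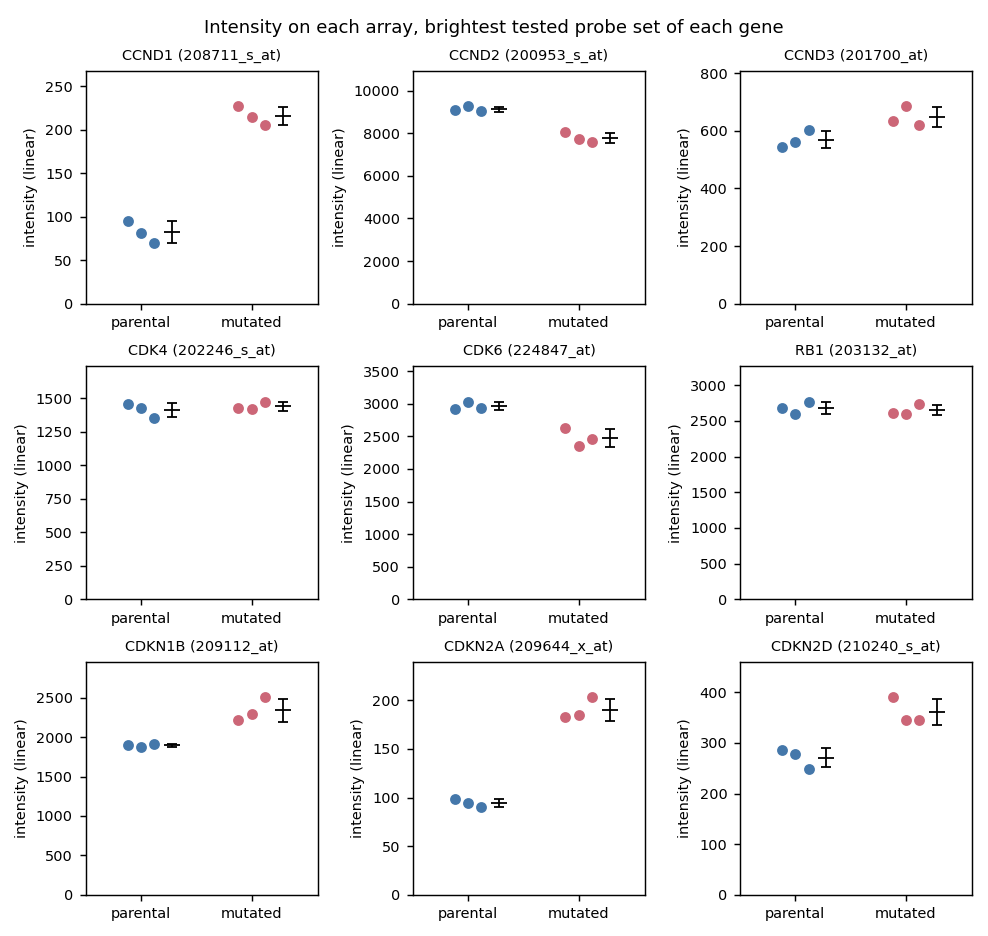
Intensity (linear scale from 0) of the brightest tested probe set of each of the 9 genes on the 3 parental (blue) and 3 mutated (red) arrays, with the group mean and SD (black, n = 3) at the side. CCND1 and CDKN2A step up far beyond their spread, CCND2 and CDK6 step down slightly, and CDK4 and RB1 overlap between the groups.

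The log2 difference of 2 genes on the same array, each read by its brightest probe set, was compared between the groups. CCND1 minus CCND2, in log2 units, was −6.36, −6.57 and −6.73 in parental and −5.05, −5.08 and −5.09 in mutated cells. It moved by 1.48 (SE 0.108) towards CCND1, and the groups did not overlap. CCND1 minus CCND3 moved by 1.07 (SE 0.158) and CCND2 minus CCND3 by −0.41 (SE 0.0660), again without overlap. These moves are those of the brightest probe sets and say nothing of how levels compare between genes, and CCND2 probe set 231259_s_at rose by more than CCND1 did. With 3 samples against 3, the exact two-sided permutation p was 0.1 for each of the 4 pairs tested, the smallest that it can give, and 0.1 after adjustment over the pairs. With the mean over probe sets in place of the brightest one, CCND1 minus CCND2 moved by 1.29 and CCND2 minus CCND3 by −0.26.

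Of the kinase genes, CDK4 did not pass and CDK6 fell on its brightest probe set. CDK4 gave 1460, 1426 and 1356 in parental and 1425, 1419 and 1475 in mutated cells (202246_s_at). The groups overlapped, with a log2 change of 0.03 (SE 0.0510; limma, adjusted p = 0.70) and a 95% interval from −0.10 to 0.15. The sign of this value turned with median centring (−0.053).

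CDK6 had 7 tested probe sets, of which 2 fell and 5 did not pass. On 224847_at the intensities were 2917, 3032 and 2932 in parental and 2624, 2349 and 2457 in mutated cells. All mutated values were below all parental values, with a log2 change of −0.26 (SE 0.0575; limma, adjusted p = 0.011). The fall was clearer on 224848_at, from 1554, 1488 and 1458 to 1040, 967 and 1038, a log2 change of −0.56 (SE 0.0545; limma, adjusted p = 3.2e-04). On 224851_at, also bright, the groups overlapped, with 2741, 2497 and 2230 in parental and 2701, 2327 and 2558 in mutated cells (log2 change 0.02, 95% interval −0.20 to 0.25). The other 4 probe sets were dimmer, between 33.8 and 205 on every array, and their changes ranged from −0.27 to 0.16 with none past the threshold. Of those, 235287_at passed as lower with quantile normalization (limma, adjusted p = 0.045). As the mean of all 7 probe sets, CDK6 changed by −0.12 and did not pass (limma, adjusted p = 0.16). CDK6 minus CDK4 on the same array was 0.99, 1.08 and 1.10 in parental and 0.87, 0.72 and 0.73 in mutated cells, a move of −0.28 (SE 0.0600), and −0.15 with the mean over probe sets.

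**Figure D2:**
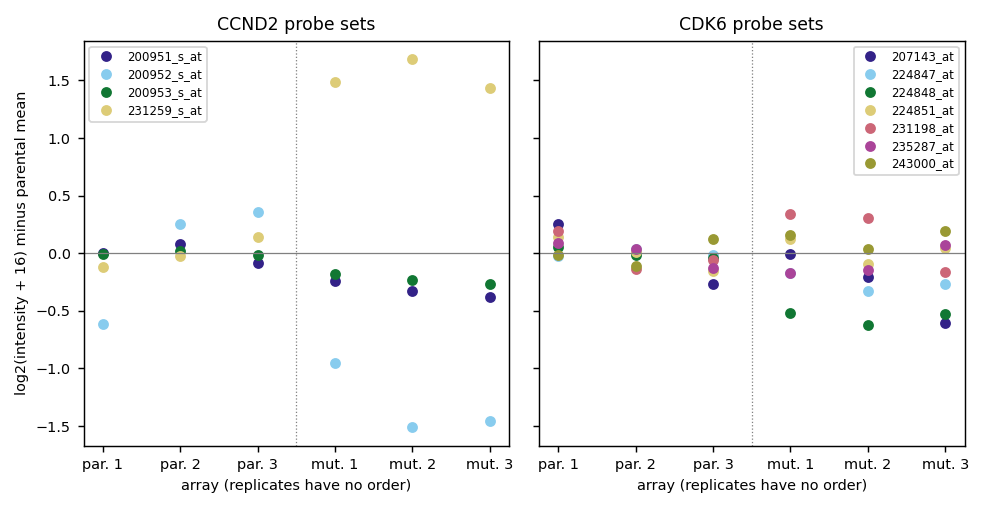
Log2(intensity + 16) of each tested probe set of CCND2 (left, 4) and CDK6 (right, 7) on the 6 arrays, each set relative to its own parental mean; points of 1 colour belong to 1 probe set. In CCND2, 231259_s_at lies well above 0 and the other 3 below it on every mutated array, and in CDK6 only 224847_at and 224848_at are separated from their parental values.

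The 3 tested inhibitor genes rose on their brightest probe sets, beside 30.1% higher among all tested genes. CDKN2D did not rise as the mean of its probe sets. CDKN2A, the gene of p16 and ARF, gave 98.0, 94.5 and 90.2 in parental and 183, 185 and 203 in mutated cells on 209644_x_at. All mutated values lay far above all parental values. The means of 94.3 ± 3.91 and 190.2 ± 11.2 (SD, n = 3) gave a log2 change of 0.90 (SE 0.0599; limma, adjusted p = 6.0e-05), and 4.62% of all tested genes rose as far. The dimmer 207039_at gave 32.9, 26.4 and 40.4 in parental and 50.6, 60.8 and 77.9 in mutated cells. Its groups did not overlap and its log2 change was 0.68 (SE 0.152; limma, adjusted p = 0.011). The third probe set, 211156_at, stayed between 2.18 and 10.7 and was too dim to be tested. Probe sets with the suffix _x_at can take up signal of related sequences, and which of the first exons shown above the measured transcripts start from cannot be read from these probe sets here.

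CDKN1B, the gene of p27, rose from 1899, 1880 and 1916 in parental to 2221, 2298 and 2506 in mutated cells on its single probe set, 209112_at. The parental values lay within a narrow band and all mutated values above it. The log2 change was 0.30 (SE 0.0590; limma, adjusted p = 0.0065), and it lay between 0.22 and 0.34 over all alternatives and passed in each. CDKN2D, the gene of the INK4 protein p19, gave 285, 278 and 249 in parental and 390, 345 and 346 in mutated cells on 210240_s_at. The groups did not overlap, and the log2 change was 0.39 (SE 0.0752; limma, adjusted p = 0.0057). Its dimmer probe set 213586_at pointed the other way, with 49.4, 34.9 and 27.5 in parental and 23.4, 18.1 and 28.1 in mutated cells. Those groups overlapped, and the log2 change of −0.43 did not pass (limma, adjusted p = 0.070). It passed as lower under 6 alternatives, among them both other scalings (adjusted p from 0.033 to 0.048). As the mean of both probe sets, the CDKN2D change was −0.019 (limma, adjusted p = 0.90).

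RB1, the gene of the retinoblastoma protein that these kinases act on, did not pass on its brightest probe set. It gave 2675, 2597 and 2768 in parental and 2615, 2601 and 2731 in mutated cells on 203132_at, so that the groups covered the same range. The log2 change was −0.02 (SE 0.0505; limma, adjusted p = 0.81), with a 95% interval from −0.14 to 0.10. The far dimmer 211540_s_at gave 59.6, 54.5 and 48.3 in parental and 78.4, 83.5 and 63.2 in mutated cells. It passed as higher with a log2 change of 0.37 (SE 0.103; limma, adjusted p = 0.024). That call was lost with quantile normalization (0.20, adjusted p = 0.14), with median centring (0.29, adjusted p = 0.061), and without parental replicate 2 or 3 or mutated replicate 1 or 2 (limma, adjusted p from 0.064 to 0.076). As the mean of both probe sets RB1 changed by 0.18 and passed (limma, adjusted p = 0.028).

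**Figure D3:**
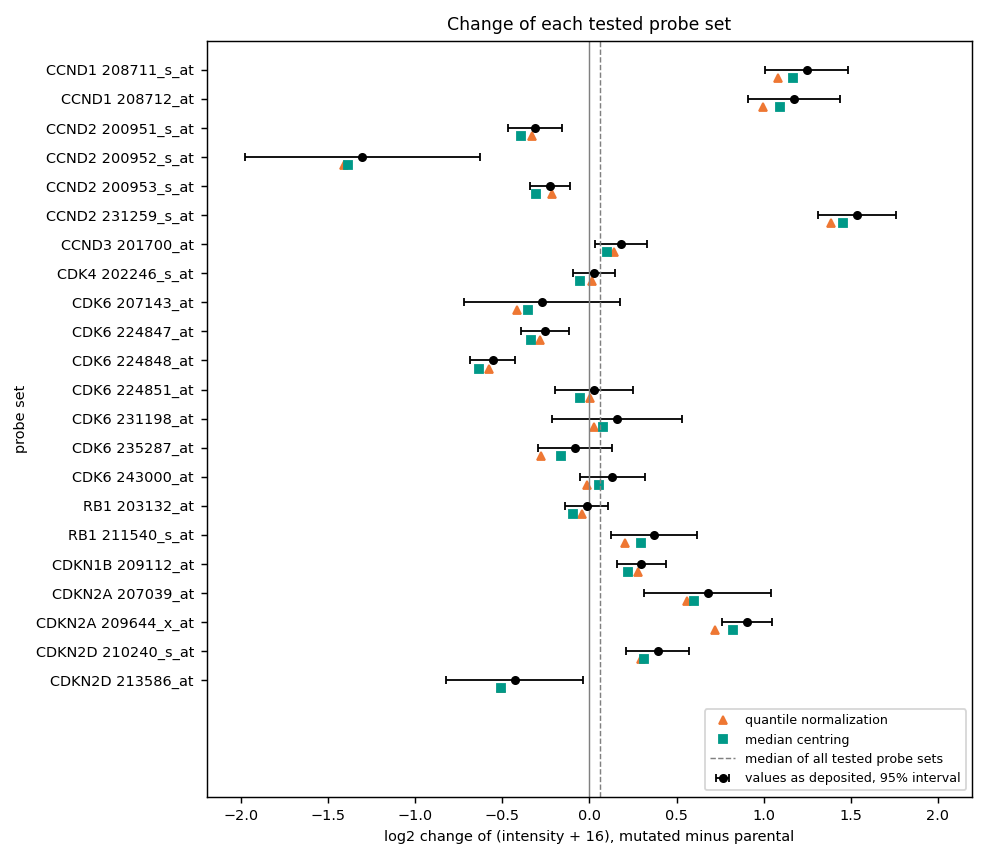
Log2 change of (intensity + 16), mutated minus parental, for the 22 tested probe sets, as deposited (black, with the unadjusted 95% interval) and under 2 other scalings between arrays (triangles and squares, no interval drawn). CCND1 and CDKN2A lie to the right of 0 under each scaling, 3 CCND2 probe sets and 2 of CDK6 to the left, and CDK4 and the brighter RB1 probe set within 0.1 of it.

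Of the 22 tested probe sets, 8 were higher, 5 were lower and 9 did not pass, beside 30.9% higher, 16.6% lower and 47.5% either way among all tested probe sets. The mutated values all lay above the parental ones in 9 of the 22 and below in 5, against 36.3% and 21.4% of all tested probe sets and 57.8% either way. Of the 9 genes by their brightest probe set, 4 were higher (CCND1, CDKN1B, CDKN2A and CDKN2D), 2 were lower (CCND2 and CDK6) and 3 did not pass (CCND3, CDK4 and RB1), beside 30.1%, 18.9% and, either way, 49% of all tested genes. The median change was 0.18 over the 9 genes and 0.04 over all tested genes. The mutated values lay above the parental ones in 5 of the 9 genes and below in 2, against 36.3% and 24.8% of all tested genes and 61.2% either way. With so few genes and so many calls on the whole array, these counts set no member group apart. Of the 6 members with several tested probe sets, CDK6, CDKN2D and RB1 had both called and uncalled ones, and CCND1 and CDKN2A were called the same way on each.

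**Figure D4:**
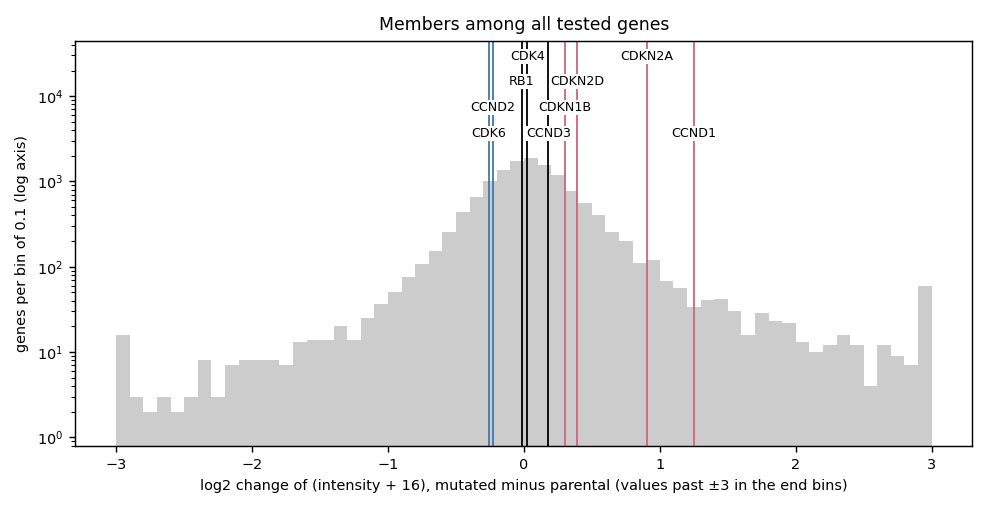
Number of tested genes (grey bars, log axis) by log2 change of (intensity + 16), mutated minus parental, with the 9 members marked by their brightest probe set (red higher, blue lower, black not past the threshold). CCND1 at 1.25 and CDKN2A at 0.90 lie in the upper tail, and the other 7 lie between −0.26 and 0.39.

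For each D cyclin the genes with the most similar values were named by the smallest mean absolute difference of log2 values over the 6 arrays, after subtracting each mean. For CCND1 they were KRT10-AS1 (0.046), DNM3 (0.047) and FABP6 (0.058). For CCND2 they were TMEM140 (0.0074), GRSF1 (0.0078) and SIRT7 (0.0099), and for CCND3 TMEM50B (0.017), HAS2 (0.021) and RPS6KC1 (0.022). The parental means of DNM3 (15.0, mutated 61.3) and HAS2 (17.9, mutated 21.6) lay below the filter's cut at an intensity of 18.0. Both were tested only through their mutated values, so their place among the genes compared is partly set by the filter. Within 0.1 of the profile lay 54 genes for CCND1, 2986 for CCND2 and 3791 for CCND3, so the profiles of CCND2 and CCND3 were shared by many genes.

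Other genes of the pathway were read from 8 lists, whose counts stand beside 30.1% higher, 18.9% lower and 49% either way among all tested genes. Of 9 partners and activators of G1 kinases, 0 rose, 1 fell and 8 did not pass (limma; 0 higher under all alternatives), with a median change of 0.04. The 1 that fell was CDC25A, a phosphatase that activates CDK2, from 335 ± 27.01 to 272 ± 13.2 (SD, n = 3), and it did not pass without parental replicate 2 (limma, adjusted p = 0.051). Other CDC25A probe sets gave −0.02 and −0.23 and did not pass. The E-type cyclin genes CCNE1 (−0.15) and CCNE2 (0.04) and their kinase gene CDK2 (−0.09) did not pass on their brightest probe sets, while a dimmer CDK2 probe set was lower (−0.65). At an unadjusted p under 0.05, 0 were higher and 2 lower. The count of falls was 0 without parental replicate 2, 2 without mutated replicate 3, and 3 with median centring or the mean of probe sets. It was also 2 with quantile normalization, the dimmest 60% left out, trend and robust options, array weights or a pseudocount of 64. Of 3 other tested CDK inhibitor genes 1 rose, CDKN3, a phosphatase that acts on CDKs, from 1778 ± 28.3 to 2188 ± 129 (SD, n = 3). The count of rises was 2 without mutated replicate 3, with quantile normalization and with the dimmest 60% left out. That count was also 2 with trend and robust options, array weights, a pseudocount of 64 or the mean of probe sets. CDKN1A, the gene of p21, gave 3680 ± 91.3 and 4085 ± 154 (SD, n = 3) and did not pass (log2 change 0.15; limma, adjusted p = 0.052). CDKN2B, the INK4 gene beside CDKN2A, was too dim to be tested.

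Of 12 RB and E2F factor genes 4 rose, 5 fell and 3 did not pass, beside 30.1% higher and 18.9% lower among all tested genes, with a median change of −0.05. E2F5, a repressive E2F, rose from 334 ± 10.4 to 590.2 ± 18.9 and E2F7, a repressor without an RB-binding part, from 723 ± 24.2 to 1017 ± 39.2 (SD, n = 3). E2F4, another repressive E2F, fell from 367 ± 4.05 to 222 ± 10.5, though its other probe set gave −0.05 and did not pass. RBL1, which encodes the RB relative p107, fell from 404 ± 16.6 to 282 ± 4.79 (SD, n = 3). Its other probe sets gave 0.01 and, past the threshold and opposite in direction, 0.37 (limma, adjusted p = 0.033), and the mean of all was −0.04 and did not pass. E2F1, an activating E2F, fell from 116 ± 4.12 to 75.8 ± 14.3 (SD, n = 3) and is named after its value was seen. The count of falls was 3 without parental replicate 2 or 3 or mutated replicate 2, and 3 with no filter on dim probe sets, with the mean of probe sets, and without the suffixes _s_at and _x_at, where 2 rose.

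Of 14 genes of cyclin D and p27 turnover 3 rose, 5 fell and 6 did not pass (median −0.07), beside 30.1% higher and 18.9% lower among all tested genes. SKP2 and CKS1B, parts of the ligase that marks p27 for destruction, rose from 1036 ± 51.7 to 1309.8 ± 13.4 and from 3563 ± 74.4 to 4439 ± 116 (SD, n = 3). Other SKP2 probe sets ranged from −0.07 to 0.58. FBXW7, a ligase subunit known for destroying cyclin E, fell from 2605 ± 121 to 2054 ± 12.1, and UHMK1, a kinase that acts on p27, from 3068 ± 64.9 to 2531 ± 87.0 (SD, n = 3). Other UHMK1 probe sets gave −0.43, past the threshold, and −0.14 and 0.02, which did not pass. The count of falls was 2 without parental replicate 1 or mutated replicate 1, 3 without parental replicate 2 or 3 or mutated replicate 2, 2 with no filter on dim probe sets, 3 with a pseudocount of 1, and 3 without the suffixes _s_at and _x_at, where 1 rose.

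Among transcription factors and regulators of D cyclins, INK4 genes and p27, 1 rose, 9 fell and 8 did not pass of 18 (median −0.15), beside 30.1% and 18.9% of all tested genes. Without the suffixes _s_at and _x_at 5 fell. STAT3 fell from 1956 ± 42.7 to 1010.1 ± 39.9 and JUN, a part of AP-1, from 922 ± 42.1 to 537 ± 22.0 (SD, n = 3). PRDM1, the plasma cell factor BLIMP1, fell from 349 ± 16.4 to 105 ± 3.32 and FOXO1 from 72.5 ± 1.56 to 34.5 ± 4.22 (SD, n = 3). PRDM1 is also 1 of the 5 plasma cell markers that fell, and the part of that shift in the counts of this list was not tested. Of FOXO1's other probe sets, the values were −1.12 and −0.01. The 1 that rose was ID3, an inhibitor of E proteins (log2 change 0.47), and 2 rose without mutated replicate 3 or with the replicate number as a block. MYC, a transcription factor gene named after its value was seen, fell by 0.17 on the log2 scale (limma, adjusted p = 0.029).

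**Figure D5:**
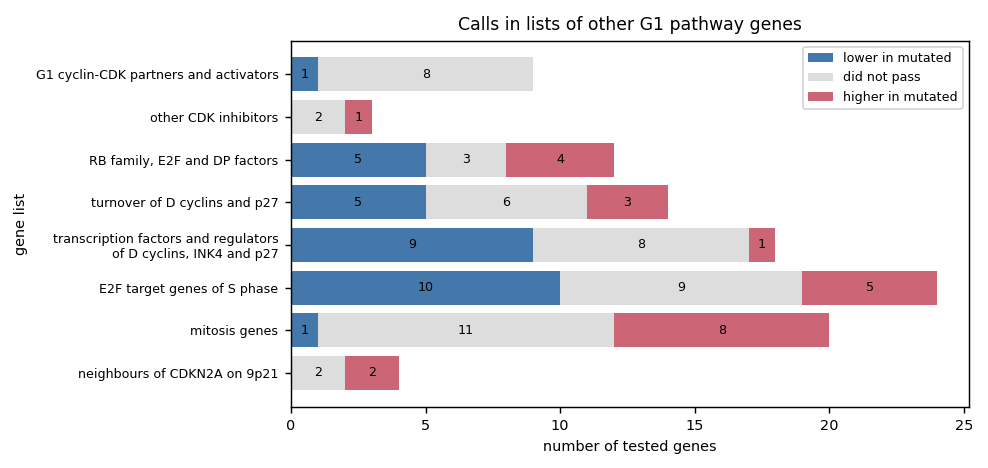
Number of tested genes in each of the 8 lists of other pathway genes that were lower (blue), higher (red) or did not pass (grey) in mutated cells (limma, adjusted p under 0.05). The regulators hold 9 lower and 1 higher, the E2F targets 10 lower and 5 higher, and the mitosis genes 1 lower and 8 higher.

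E2F target genes of S phase held 5 that rose and 10 that fell among 24, with 9 not past the threshold (median −0.10), beside 30.1% higher and 18.9% lower among all tested genes. UHRF1, which keeps up DNA methylation, fell from 2216 ± 42.4 to 1607 ± 35.9, RRM2, a ribonucleotide reductase subunit, from 4209 ± 179 to 3130 ± 25.2, and POLA1, a DNA polymerase subunit, from 671 ± 31.1 to 507 ± 7.85 (SD, n = 3). ORC1, of the origin recognition complex, rose from 229.8 ± 15.1 to 332 ± 30.6 (SD, n = 3). With median centring 3 rose and 13 fell. Of 20 mitosis genes 8 were higher, 1 was lower (TPX2, −0.21) and 11 did not pass (median 0.10), beside 30.1% higher and 18.9% lower among all tested genes. BIRC5, survivin, rose from 1633 ± 53.0 to 2329.5 ± 49.5 and AURKB, the kinase of the same complex, from 467 ± 25.7 to 613 ± 15.8 (SD, n = 3). TTK, a spindle checkpoint kinase (0.31), and the spindle kinase gene AURKA (0.26) rose as well, though AURKA did not pass without the suffixes _s_at and _x_at (limma, adjusted p = 0.21). With median centring 6 mitosis genes rose and 3 fell. The count of falls was 0 without parental replicate 1 or 2 or mutated replicate 2, with no filter, and without the suffixes _s_at and _x_at. It was 2 without mutated replicate 3, with quantile normalization, with the dimmest 60% left out and with array weights. It was also 2 with a pseudocount of 64 or the replicate number as a block, and 3 with trend and robust options.

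The genes that lie around CDKN2A on the short arm of chromosome 9 were read as a last list, to set its rise beside that of its neighbours. Of 4 tested, 2 rose and 2 did not pass, and 1 fell with quantile normalization. The count of rises was 3 with the dimmest 60% left out, trend and robust options, array weights or a pseudocount of 64. That count was also 3 with the mean of probe sets and without the suffixes _s_at and _x_at. ELAVL2, a neuronal RNA-binding protein gene, rose from 106, 116 and 115 in parental to 768, 816 and 846 in mutated cells, a log2 change of 2.69 (SE 0.0595; limma, adjusted p = 6.9e-07), and by 2.71 on its other probe set. KLHL9, a ubiquitin ligase adaptor, rose from 2393 ± 45.1 to 3163 ± 24.2 (SD, n = 3). MTAP, a methionine salvage enzyme and the gene next to CDKN2A, gave 262 ± 20.8 and 239 ± 21.03 (SD, n = 3) and did not pass (log2 change −0.13). MLLT3 did not pass on its brightest probe set (0.15) but gave 0.17 and 0.85, both past the threshold, on the others. CDKN2B, CDKN2B-AS1 and DMRTA1 were too dim to be tested.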

How the data were processed

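Total RNA of 3 parental and 3 mutated samples was isolated with an RNeasy kit and copied into biotin-labelled cRNA, per the labels' protocols. The deposited values are the authors' linear intensity per probe set. Background correction, summary and scaling between arrays are not stated in the labels, and detection calls were not part of the analysis. Names came from the platform annotation (1 symbol for 41091 of 54613 probe sets, several for 1801, none for 11721), checked by Entrez ID against RefSeq genes of GRCh38.p14 (41037 matched, 0 symbols changed).

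Values were transformed as log2(intensity + 16), which understates changes of dim genes. The dimmest 40% of probe sets by mean over all arrays were left out, and limma 3.58.1 in R 4.3.3 (functions lmFit and eBayes; group as the single term; two-sided) was run on the other 32768, adjusted by Benjamini-Hochberg over all of them at 0.05. The procedure was tested on simulated data. The 6 arrays limit the precision. Deviations of same-numbered samples correlated at 0.11, 0.027 and 0.11 over probe sets, so numbers were not taken as pairs.

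Named were every member probe set, up to 4 called genes of each list with the smallest adjusted p, and 3 genes most like each D cyclin. Other list genes were named after their values were seen. The members and lists were chosen with earlier results of these data known. The planned differences CDKN2C minus CDKN2D and CDKN1B minus CDKN2C were not computed, since CDKN2C had no named probe set. Alternatives were quantile normalization, median centring, other filters (none, 60%), pseudocounts of 1 and 64, trend and robust options, array weights, a replicate block, each sample left out, averaging the probe sets of each gene, and leaving out probe sets named _s_at or _x_at, whose probes can match more than 1 transcript.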

Additional observations from a re-analysis of the deposited data

How the results depend on the processing

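Of 342 values of the 22 member probe sets under the alternatives, 310 kept their direction and their side of the threshold. With the sign unchanged, 8 lost the call and 14 gained one, and 10 changed sign. Of those 10, CDKN2D also lost its call with the mean of probe sets and without the suffixes _s_at and _x_at. RB1 gained one with the mean of probe sets. For 10 probe sets no alternative changed either. Values near 0 changed sign: CDK4 gave −0.053 and CDK6 224851_at −0.054 with median centring, and CDK6 243000_at −0.017 with quantile normalization. With 1 array left out, CDK4 ranged from −0.0033 to 0.049, CDK6 224851_at from −0.051 to 0.097 and RB1 203132_at from −0.039 to 0.0068. As the mean of probe sets CDKN2D gave −0.019 and RB1 0.18, and without the suffixes _s_at and _x_at CDKN2D was represented by 213586_at at −0.43. The number of member genes that were lower was then 0 with the mean of probe sets and 1 without those suffixes, against 2; CCND2 had no other tested probe set there. With 1 array left out, 4 to 5 member genes were higher and 2 lower, and 7 to 8 member probe sets were higher and 5 to 6 lower. With the replicate number as a block, 8 member probe sets were higher and 6 lower (CDK6 207143_at added; limma, adjusted p = 0.017), and 14897 probe sets were called in all against 15553, of which 14045 were shared. Each sample's deviations correlated best with those of the same-numbered sample of the other group, which is a hint from the data and not from the design. Of 402 values of 24 named genes of the lists, 399 kept direction and call and 3 lost the call (CDC25A, RBL1 and AURKA). Dim probe sets, such as CDK6 207143_at with an SE of 0.19, limit what can be seen.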
